A study of Homo sapiens with 20 samples.

Results

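The report covers 32 named human genes of glucose breakdown and pyruvate entry. They comprise 1 glucose transporter, 17 enzymes of glycolysis and its control, 6 enzymes of the pentose phosphate pathway and 8 genes that carry pyruvate into the mitochondrion or turn it into acetyl-CoA. They were named by symbol in a rule that uses no measured value, though with earlier results of these data known, and all 32 were found among the 26038 gene symbols of the count table. RNA-seq of polyA RNA was done on 20 libraries, 5 for each of 4 groups, of cells that the labels name MHCC-97H, a human hepatocellular carcinoma line. NFS1 cells carried the label of an NFS1 knockdown, made with shRNA according to the study's design. NC cells carried the label wild type. Both NFS1 and NC had been held at 47 °C and belong to the second experiment. R-47 and R-37 cells carried the label wild type and had been held at 47 °C and 37 °C in the first experiment. All 4 groups had the bath for 15 minutes and then 24 hours in an incubator. The labels do not say whether NC cells carried a control vector, nor how many clones or cultures stood behind a group. The p-values therefore measure the spread between these libraries, which may be technical.

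Glycolysis turns 1 glucose into pyruvate in a chain of cytosolic enzymes, most of which exist as several isozymes from separate genes. The pentose phosphate pathway branches off at glucose 6-phosphate, yields NADPH and ribose 5-phosphate, and feeds sugar phosphates back into glycolysis. Pyruvate enters the mitochondrion through a carrier and is oxidised by the pyruvate dehydrogenase complex, which a family of kinases switches off. Liver cancer cells are known for high glycolytic flux, and the lactate that follows is the donor for histone lactylation, the theme of the study.

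Total counts ran from 35426499 to 36253443 in NFS1 libraries, 35732485 to 36744075 in NC, 35431078 to 39094039 in R-47 and 32219946 to 39689939 in R-37. Of 12 hepatocyte markers, 7 exceeded 1 CPM (a count scaled by TMM-adjusted library size) in NFS1 and in NC, against 9 in R-47 and in R-37. The 12 summed to 251.9 to 261 CPM in NFS1, 282 to 306 CPM in NC, 205 to 231 CPM in R-47 and 253 to 274 CPM in R-37. ALB, the gene of serum albumin, averaged 0.633 CPM in NFS1, 0.849 CPM in NC, 5.10 CPM in R-47 and 14.1 CPM in R-37. FGB, a fibrinogen chain, averaged 106 CPM in NFS1, 102 CPM in NC, 41.9 CPM in R-47 and 53.1 CPM in R-37, and HNF4A, a liver transcription factor, 67.4 CPM in NFS1, 96.3 CPM in NC, 55.3 CPM in R-47 and 45.6 CPM in R-37. Of 5 bile duct markers, 4 were in the count table, and 2 exceeded 1 CPM in NFS1 and in NC, against 3 in R-47 and in R-37. They summed to 9.32 to 13.3 CPM in NFS1, 11.3 to 14.5 CPM in NC, 459 to 507 CPM in R-47 and 388 to 531 CPM in R-37. KRT19, a keratin of bile duct cells, led the list in R-47 and R-37. It averaged 0.651 CPM in NFS1, 0.794 CPM in NC, 423 CPM in R-47 and 425 CPM in R-37. Of 7 leukocyte markers, 3 or 4 exceeded 1 CPM in each group, and the list summed to 131 to 152 CPM in NFS1, 119.8 to 129 CPM in NC, 156 to 201 CPM in R-47 and 82.9 to 93.7 CPM in R-37. CD68 led it, at 137 CPM in NFS1, 120.2 CPM in NC, 162 CPM in R-47 and 78.9 CPM in R-37, while CD3E was at 0 in NFS1, NC and R-47. Of 5 endothelial markers, PECAM1 and KDR exceeded 1 CPM in every group and the list summed to 51.9 to 58.3 CPM in NFS1, 56.1 to 70.0 CPM in NC, 70.0 to 79.2 CPM in R-47 and 66.3 to 78.3 CPM in R-37, while CDH5 was at 0 in NFS1, NC and R-47. Of 6 fibroblast or stellate markers, 1 or 2 exceeded 1 CPM in each group, and the list summed to 31.1 to 54.5 CPM in NFS1, 21.0 to 26.0 CPM in NC, 17.1 to 20.5 CPM in R-47 and 17.8 to 26.8 CPM in R-37. NFS1 itself had 70.7, 65.2, 64.2, 64.0 and 68.3 CPM in the libraries labelled NFS1, against 71.5, 72.7, 71.4, 71.9 and 76.0 CPM in NC. Every library labelled NFS1 lay below every NC library, with a log2 fold change of -0.11, SE 0.050 and adjusted p = 0.114, so the drop did not pass the threshold of 0.05. "NFS1" below means the libraries with that label.

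Per length of transcript, the 32 genes spanned more than 4 orders of size. In FPKM, the authors' value per kilobase of gene and depth of the library, GAPDH stood first in every group, at 3295 ± 189 in NFS1, 3532 ± 68.1 in NC, 2561 ± 98.1 in R-47 and 2763 ± 140.0 in R-37 (mean ± SD, n = 5 each, as for all means here). GAPDH encodes glyceraldehyde 3-phosphate dehydrogenase, the step that makes NADH. PKM, pyruvate kinase of growing and most adult tissues, came next with 1284 ± 77.3 FPKM in NFS1, 1288 ± 44.1 in NC, 984 ± 38.1 in R-47 and 1032 ± 56.3 in R-37. HK2, the hexokinase often induced in tumours, was the lowest of the 32 in every group, at 0.111 ± 0.0359 FPKM in NFS1, 0.149 ± 0.0376 in NC, 0.0832 ± 0.0309 in R-47 and 0.0557 ± 0.0217 in R-37. The 32 genes together took 1.87 to 2.19% of all counts in NFS1 libraries, 2.05 to 2.18% in NC, 1.64 to 1.77% in R-47 and 1.64 to 1.86% in R-37. The NC and R-47 ranges of this share do not overlap, while those of NFS1 and NC do and those of R-47 and R-37 do. The share is of raw totals, without TMM scaling. TMM factors ran from 1.06 to 1.09 in NC and from 0.939 to 0.953 in R-47, so the size of that gap depends on scaling. In cultures as in tissue, less RNA per cell and fewer cells of a kind cannot be told apart in such bulk values.

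The promoters of 3 genes are printed for the patterns given next. PGK1, phosphoglycerate kinase and the first ATP-forming step, was lower in the first-named group of all 3 comparisons made here (heated over unheated wild type, NFS1 over NC, and the NC group over R-47). ENO2, the enolase named for neurons, was higher in all 3. Some of these PGK1 and ENO2 calls were lost in other settings, as given below. TALDO1, whose promoter is not printed, was also lower in all 3, with calls likewise lost in some settings. ALDOC, the aldolase named for brain, had the largest rise of the 32 in NC against R-47. The windows run from 250 bases before to 50 after the RefSeq gene start on GRCh38.p14, at chrX:78103998-78104297 on the plus strand for PGK1, chr12:6914330-6914629 on the plus strand for ENO2 and chr17:28576846-28577145 on the minus strand for ALDOC. Capitals mark 4 short motifs on either strand. ACGTG and GCGTG are core letters known from hypoxia-inducible factor sites, CACGTG is the E-box, which contains ACGTG, and GAANNTTC is a facing pair of heat shock factor units. On the printed strand, a reverse match reads CACGT or CACGC.
PGK1: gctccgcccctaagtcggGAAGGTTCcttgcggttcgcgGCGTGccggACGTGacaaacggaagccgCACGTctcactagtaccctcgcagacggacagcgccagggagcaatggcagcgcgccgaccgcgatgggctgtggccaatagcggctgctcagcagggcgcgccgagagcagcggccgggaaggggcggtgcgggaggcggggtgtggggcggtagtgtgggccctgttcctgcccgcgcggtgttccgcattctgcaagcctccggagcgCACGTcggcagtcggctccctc
ENO2: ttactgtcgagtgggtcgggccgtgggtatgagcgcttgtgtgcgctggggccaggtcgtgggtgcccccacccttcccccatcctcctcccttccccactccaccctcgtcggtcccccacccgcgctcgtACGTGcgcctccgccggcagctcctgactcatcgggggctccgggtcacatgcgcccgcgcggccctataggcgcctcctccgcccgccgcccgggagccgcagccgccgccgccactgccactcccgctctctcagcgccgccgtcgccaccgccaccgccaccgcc
ALDOC: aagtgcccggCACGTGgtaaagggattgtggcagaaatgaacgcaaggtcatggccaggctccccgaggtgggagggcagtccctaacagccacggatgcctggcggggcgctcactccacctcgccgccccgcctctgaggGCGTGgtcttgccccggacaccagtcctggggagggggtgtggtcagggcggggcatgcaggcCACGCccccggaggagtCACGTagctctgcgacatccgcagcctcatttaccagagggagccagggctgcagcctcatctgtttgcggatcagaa

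The PGK1 window held ACGTG 3 times, GCGTG 1 time and GAANNTTC 1 time. In the ENO2 window ACGTG occurred 1 time and the other 3 motifs did not. The ALDOC window held ACGTG 3 times, counting both strands of its E-box, and GCGTG 2 times. Over RefSeq windows of all the genes, ACGTG occurred in 17 of the 32 genes (21 of their 57 windows), against 24.9% of all genes (21.4% of all windows). GCGTG occurred in 22 of the 32 (25 of 57 windows), against 40.6% of all genes (36.5% of windows). CACGTG occurred in 7 (7 of 57 windows), against 8.77% of all genes (7.26% of windows), and GAANNTTC in PGK1 alone among the 32, against 8.21% of all genes (6.77% of windows). The 32 genes had 57 windows and all 27305 genes had 35116, so the 32 had more windows per gene. Shares by gene rise with the number of windows per gene, so the shares by window are the closer comparison. These letters describe the windows and are no evidence of binding.

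**Figure D1:**
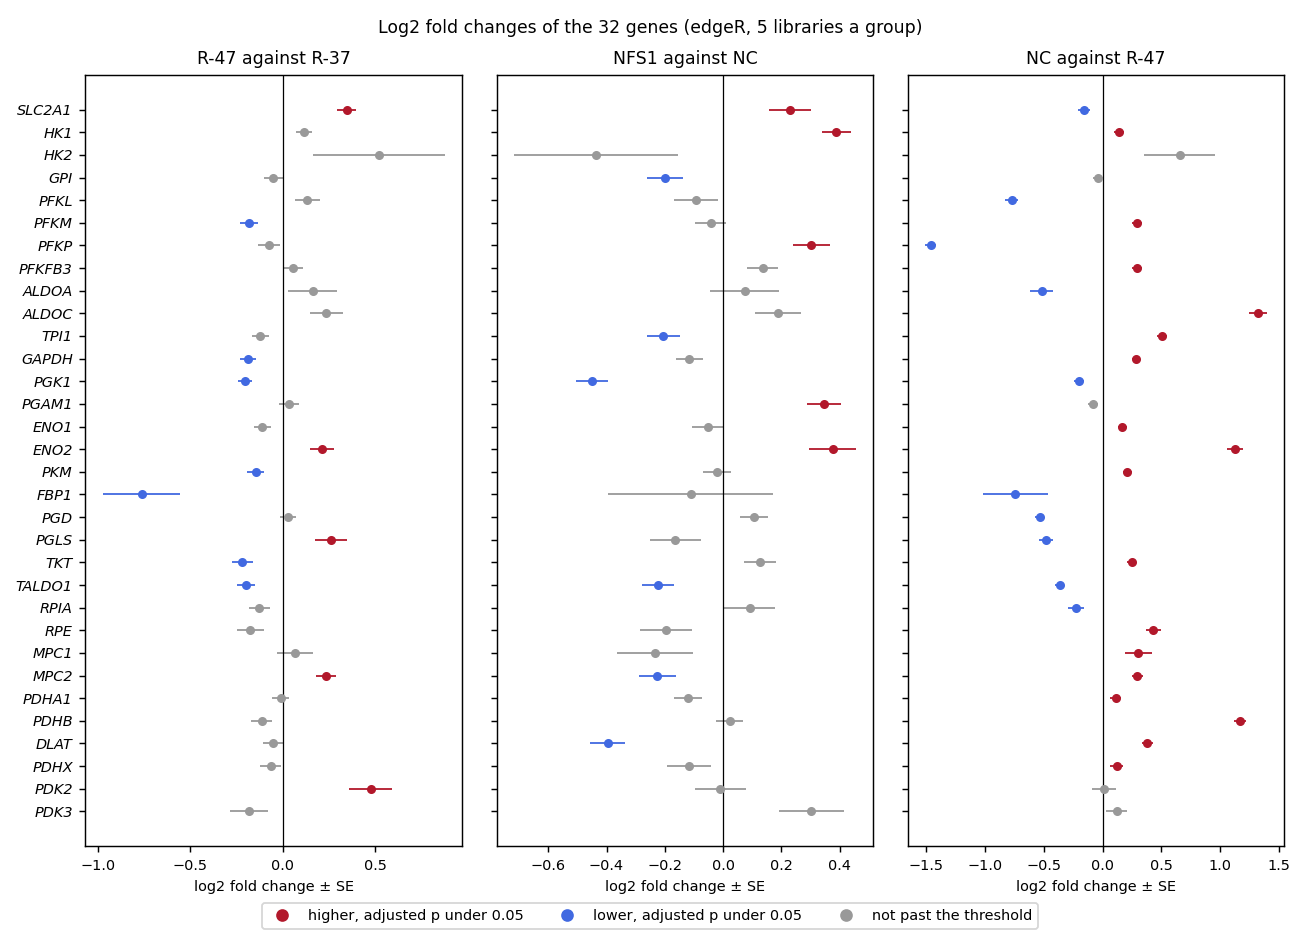
Log2 fold changes (points) with their SE (bars) of the 32 genes for R-47 over R-37 (left), NFS1 over NC (middle) and NC over R-47 (right), from edgeR with 5 libraries a group. Red marks genes past the threshold and higher in the first-named group (5, 5 and 17), blue those lower (7, 6 and 10), and grey those that did not pass (20, 21 and 5). Each panel has its own scale.

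The first comparison asked what a 47 °C bath left in wild-type cells 24 hours later. The glucose transporter SLC2A1, the carrier subunit MPC2 and the dehydrogenase kinase PDK2 were higher in R-47 cells than in R-37 cells, by 1.18- to 1.39-fold. Abundant enzymes of the energy-yielding steps of glycolysis (GAPDH, PGK1, PKM) and of the pentose phosphate pathway (TKT, TALDO1) were lower, to 0.860 to 0.904 of the R-37 level. FBP1, which runs the phosphofructokinase step backwards in gluconeogenesis, was lower to 0.589 of the R-37 level, though it was near 1 CPM. In all, 5 of the 32 genes were higher and 7 lower past an adjusted p of 0.05, beside 11.9% and 13.2% of the 14344 genes tested (25.1% in either direction), and all 32 passed the filter on low counts. The 32 genes had a median log2 fold change of -0.051, against -0.0076 for all tested genes. The direction of this split depended on scaling. With library size alone, 8 genes were higher and 2 lower (PGK1 and FBP1), beside 20.8% and 7.06% of all tested genes, whose median was then 0.069, and the calls of PFKM, GAPDH, PKM, TKT and TALDO1 were lost. The share over all genes moved the same way as that of the 32. The number higher was 3 when R-47 library 2, 3 or 5 was left out, as ENO2 and PGLS fell short. In 7 genes the groups did not overlap, beside 18% of all tested genes.

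For glucose entry, SLC2A1 (GLUT1, the basal glucose transporter) had 140.0, 159, 162, 154 and 155 CPM in R-47 libraries, against 126, 115, 123, 128 and 115 CPM in R-37. All R-47 libraries lay above all R-37 libraries, with a log2 fold change of 0.35, SE 0.051 and adjusted p = 0.000202. Neither hexokinase of the list passed: HK1 averaged 248 ± 11.5 CPM in R-47 and 229.5 ± 8.25 CPM in R-37 (adjusted p = 0.0719), and HK2 stayed under 1 CPM in every library. Among the phosphofructokinases, which commit the sugar to glycolysis, PFKM had 116, 120.2, 120.3, 117 and 117 CPM in R-47, against 145, 133, 142, 127 and 126 CPM in R-37. All R-47 libraries were the lower ones, with a log2 fold change of -0.18, SE 0.049 and adjusted p = 0.0132. FBP1 had 1.23, 1.52, 1.04, 0.702 and 1.25 CPM in R-47, against 2.25, 1.83, 1.96, 1.56 and 2.16 CPM in R-37, again without overlap (a log2 fold change of -0.76, SE 0.21 and adjusted p = 0.0153).

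In the energy-yielding steps, GAPDH had 4730.5, 4715, 4962, 4385 and 4679 CPM in R-47, against 5614, 5139, 5523, 5569 and 4943 CPM in R-37. In GAPDH 1 R-47 library lay above the lowest R-37 library, and the fit gave a log2 fold change of -0.19, SE 0.043 and adjusted p = 0.00568. PGK1 had 1123, 1101, 1104, 1083 and 1132 CPM in R-47, against 1342, 1264, 1320.1, 1232 and 1239 CPM in R-37. Its groups did not overlap, with a log2 fold change of -0.20, SE 0.038 and adjusted p = 0.00124. With offsets for gene length and GC content the PGK1 change was -0.11 (adjusted p = 0.0778), past no threshold. PKM had 3564, 3511, 3636, 3234 and 3534 CPM in R-47, against 4158, 3788, 4000.5, 3914 and 3533 CPM in R-37. Its ranges overlapped, and the call (a log2 fold change of -0.15, SE 0.045 and adjusted p = 0.0282) was lost on leaving out any of 6 single libraries. ENO2 had 25.2, 28.0, 29.1, 27.4 and 28.96 CPM in R-47, against 26.7, 23.1, 23.5, 24.3 and 22.6 CPM in R-37. Its lowest R-47 library lay below the highest R-37 library, and the change (a log2 fold change of 0.21, SE 0.065 and adjusted p = 0.0273) was lost on leaving out any of 5 single libraries.

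Of the pentose phosphate genes, TALDO1 (transaldolase) and TKT (transketolase), the pair that links the pathway back to glycolysis, were both lower. TALDO1 had 782, 789, 795, 760.2 and 779.6 CPM in R-47, against 965, 848, 926, 934 and 818 CPM in R-37. The groups did not overlap (a log2 fold change of -0.20, SE 0.047 and adjusted p = 0.00649). TKT had 1081, 1105, 1157, 1022 and 1086 CPM in R-47, against 1379, 1214, 1350.2, 1324 and 1089 CPM in R-37. Its fit gave a log2 fold change of -0.22, SE 0.058 and adjusted p = 0.0131, with 2 R-47 libraries above the lowest R-37 library. PGLS, the lactonase of the oxidative branch, had 52.9, 56.6, 55.4, 49.0 and 56.5 CPM in R-47, against 51.7, 41.4, 50.8, 46.5 and 35.5 CPM in R-37. The ranges overlapped, and the call (a log2 fold change of 0.26, SE 0.088 and adjusted p = 0.0388) was lost on leaving out any of 6 single libraries and with length and GC offsets. RPIA, the ribose phosphate isomerase, had 29.4 ± 1.46 CPM in R-47 and 32.2 ± 0.982 CPM in R-37, without overlap and without passing (adjusted p = 0.119).

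At the mitochondrial entry, MPC2, a subunit of the pyruvate carrier, had 58.5, 58.8, 55.5, 56.2 and 56.5 CPM in R-47, against 51.0, 43.6, 49.4, 49.1 and 50.3 CPM in R-37. No library overlapped (a log2 fold change of 0.24, SE 0.055 and adjusted p = 0.00556). PDK2, a kinase that switches pyruvate dehydrogenase off, had 10.3, 15.0, 15.3, 13.9 and 14.7 CPM in R-47, against 11.5, 10.9, 9.50, 10.3 and 7.78 CPM in R-37. Library 1 of R-47 lay within the R-37 range and the other R-47 libraries above it (a log2 fold change of 0.48, SE 0.12 and adjusted p = 0.00752). The dehydrogenase subunits PDHA1, PDHB, DLAT and PDHX did not pass, with log2 fold changes of -0.011, -0.11, -0.052 and -0.065. The 20 genes that did not pass lay between -0.18 (PDK3) and 0.52 (HK2).

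**Figure D2:**
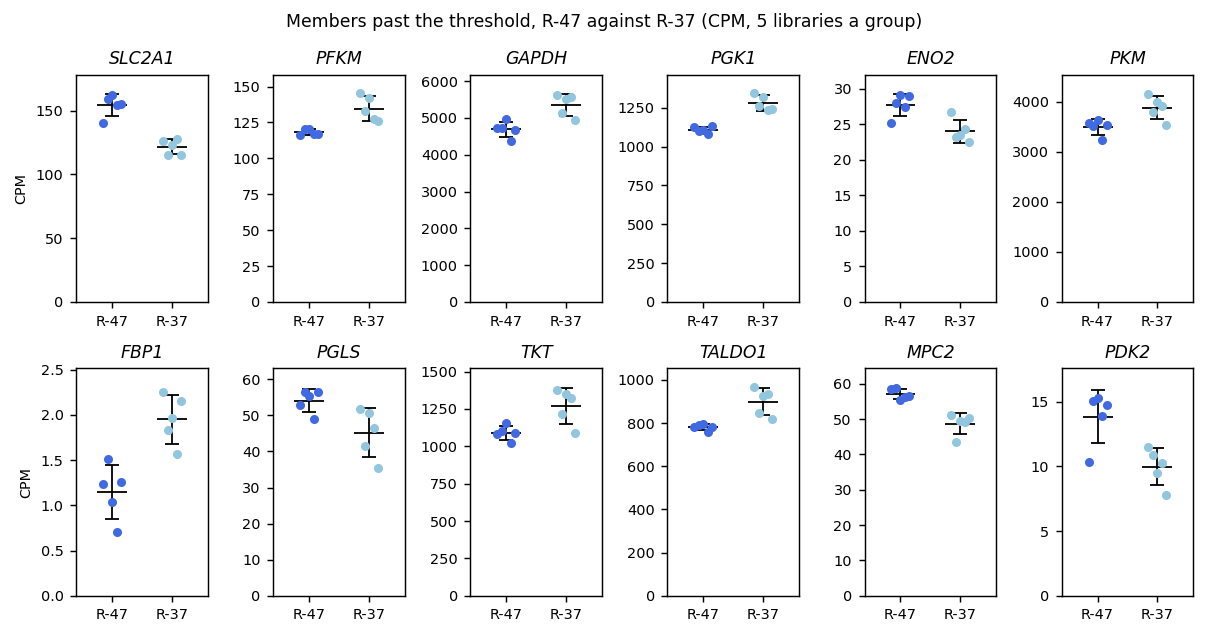
CPM of the 12 genes past the threshold in R-47 against R-37, with 1 point per library, a line at the mean and a bar of 1 SD; each panel starts at 0. SLC2A1 and MPC2 lie wholly higher in R-47, and PFKM, PGK1, FBP1 and TALDO1 wholly lower, while the other 6 genes overlap.

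Isozyme balance was measured as the log2 of the ratio of counts of 2 genes within a library (0.5 added to each), which scaling between libraries does not touch. It was tested by an exact two-sided permutation over all splits of 5 against 5 libraries, with p adjusted over 30 tests (10 pairs, 3 comparisons). Pairs of other genes were not tested, so the numbers of pairs past the threshold have no share over all pairs beside them. In R-47 against R-37, 5 of 10 pairs passed. The ratio PFKP/PFKL (platelet-type over liver-type phosphofructokinase) averaged 1.46 ± 0.071 in R-47 and 1.67 ± 0.040 in R-37, a difference of -0.21 (exact permutation test, adjusted p = 0.0170), and PFKM/PFKL averaged 0.030 ± 0.089 in R-47 and 0.35 ± 0.095 in R-37, a difference of -0.32 (exact permutation test, adjusted p = 0.0170). PFKL had 116, 110.0, 125, 108 and 121 CPM in R-47, against 118, 99.2, 114, 108 and 91.2 CPM in R-37, and PFKP had 334, 308, 335, 307 and 309 CPM in R-47, against 370.2, 329, 350.1, 346 and 289 CPM in R-37. Neither gene passed alone, so the shift between them was seen only in the ratio. The ratio ENO2/ENO1 averaged -6.29 ± 0.087 in R-47 and -6.61 ± 0.074 in R-37, a difference of 0.32 (exact permutation test, adjusted p = 0.0170). ENO1, the main enolase, had 2196, 2161, 2245, 2092 and 2166 CPM in R-47, against 2495, 2231, 2488, 2416 and 2124 CPM in R-37. The ratio FBP1/PFKL, a gluconeogenic over a glycolytic enzyme of the same step, averaged -6.68 ± 0.40 in R-47 and -5.76 ± 0.25 in R-37, a difference of -0.93 (exact permutation test, adjusted p = 0.0170). These 4 ratios did not overlap between groups, and each had p = 0.0079 in the exact test, the smallest the design allows. The ratio PDK3/PDK2 averaged -0.26 ± 0.28 in R-47 and 0.39 ± 0.40 in R-37, a difference of -0.65 (exact permutation test, adjusted p = 0.0317) with overlap, and its call was lost on leaving out any of 8 single libraries. PDK3 had 11.5, 13.2, 10.4, 11.9 and 10.4 CPM in R-47, against 10.4, 14.5, 13.3, 11.98 and 15.2 CPM in R-37.

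The second comparison asked how cells labelled NFS1 knockdown differ from NC cells, both heated. HK1 and PFKP, isozymes of the 2 regulated early steps, and PGAM1 and ENO2 of the later steps were higher in NFS1 cells, by 1.23- to 1.31-fold. PGK1 and DLAT, the acetyl-transferring core of pyruvate dehydrogenase, were lower, to 0.732 and 0.760 of the NC level. TALDO1, MPC2, TPI1 (triose phosphate isomerase) and GPI (glucose phosphate isomerase) were lower by less, to 0.855 to 0.871 of NC, and SLC2A1 was higher by 1.17-fold. In all, 5 of 32 genes were higher and 6 lower, beside 15.7% and 12.5% of the 15086 genes tested (28.1% in either direction). Their median log2 fold change was -0.048, against 0.017 for all tested genes, and all 32 passed the filter. The groups did not overlap for 10 genes, beside 21% of all tested genes. The number lower was 3 without NFS1 libraries 2 and 3, 2 libraries left out after the data were seen, when GPI, TPI1 and MPC2 fell short, and the number higher was 8 without NC library 1 and NFS1 library 4.

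HK1, the hexokinase of most tissues and the first enzyme to act on glucose, had 374, 322, 335, 358 and 364 CPM in NFS1, against 276, 267, 282, 264 and 267 CPM in NC. The groups did not overlap, with a log2 fold change of 0.39, SE 0.051 and adjusted p = 7.36e-05. PFKP had 152, 135, 132, 129.8 and 153 CPM in NFS1, against 107, 121, 123, 107 and 118 CPM in NC. All NFS1 libraries were the higher ones (a log2 fold change of 0.30, SE 0.063 and adjusted p = 0.00276). PGAM1, phosphoglycerate mutase, had 282, 261, 278, 236 and 285 CPM in NFS1, against 200.5, 224, 226, 210.4 and 208 CPM in NC. It too was separated (a log2 fold change of 0.35, SE 0.059 and adjusted p = 0.000668). SLC2A1 had 181, 149, 143, 159 and 164 CPM in NFS1, against 131, 146, 149.6, 122 and 139 CPM in NC. Its ranges overlapped, and the call (a log2 fold change of 0.23, SE 0.072 and adjusted p = 0.0290) was lost on leaving out any of 5 single libraries.

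HK1, PFKP and PGAM1 all lie on chromosome 10 (HK1 at chr10:69270000-69401882, PFKP at chr10:3067548-3136805, PGAM1 at chr10:97426191-97433444, GRCh38.p14). Of the 565 tested genes of that chromosome, 66.4% were higher in NFS1 and 1.95% lower, with a median log2 fold change of 0.48. The 3 changes of 0.39, 0.30 and 0.35 lie inside the interquartile range of the chromosome's genes, 0.19 to 0.74. The fourth gene of the list there, PFKFB3, which makes the activator fructose 2,6-bisphosphate, had a change of 0.14 and did not pass. The part of this chromosome-wide level in the 3 calls was not tested.

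PGK1 had 747, 686, 642, 677 and 713 CPM in NFS1, against 895, 1052, 987, 925 and 932 CPM in NC. No library overlapped, with a log2 fold change of -0.45, SE 0.055 and adjusted p = 4.17e-05. PGK1 lies at chrX:78104248-78129295, and 37.8% of the 466 tested genes of the X chromosome were lower in NFS1, with a median of -0.20 and an interquartile range from -0.51 to 0.063. PDHA1 and PDK3, also on X, had changes of -0.12 and 0.30 and did not pass. DLAT had 72.0, 66.0, 69.3, 77.8 and 68.3 CPM in NFS1, against 102, 92.1, 90.1, 95.7 and 91.2 CPM in NC. It was separated (a log2 fold change of -0.40, SE 0.060 and adjusted p = 0.000253). TALDO1 had 547, 511, 507, 446 and 541 CPM in NFS1, against 608, 633, 590.2, 591 and 594 CPM in NC. It was separated as well (a log2 fold change of -0.22, SE 0.055 and adjusted p = 0.00825), a call lost with length and GC offsets (adjusted p = 0.161). DLAT and TALDO1 lie on chromosome 11, where 30.1% of 814 tested genes were lower and the median was -0.13, with an interquartile range from -0.30 to 0.049. The part of these chromosome-wide levels was not tested.

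ENO2 lies on chromosome 12, where the median was 0.023 and 16.1% of 782 tested genes were higher. It had 84.4, 71.0, 70.3, 77.6 and 81.8 CPM in NFS1, against 52.8, 64.4, 69.1, 54.0 and 60.2 CPM in NC. All NFS1 libraries were above all NC libraries (a log2 fold change of 0.38, SE 0.080 and adjusted p = 0.00319). TPI1, on the same chromosome, had 1227, 1076, 1082, 1049 and 1176 CPM in NFS1, against 1228, 1416, 1378, 1256 and 1267 CPM in NC. It was separated (a log2 fold change of -0.20, SE 0.056 and adjusted p = 0.0143), with the call lost under length and GC offsets (adjusted p = 0.155). MPC2 had 65.5, 56.9, 58.1, 52.7 and 61.5 CPM in NFS1, against 70.1, 74.1, 70.2, 67.8 and 66.7 CPM in NC. It was separated (a log2 fold change of -0.23, SE 0.062 and adjusted p = 0.0148). GPI had 647, 533, 548, 542 and 615 CPM in NFS1, against 669, 712, 692, 624 and 654 CPM in NC. Its ranges overlapped, and the call (a log2 fold change of -0.20, SE 0.061 and adjusted p = 0.0244) was lost on leaving out any of 3 single libraries. The 21 genes that did not pass lay between -0.44 (HK2) and 0.30 (PDK3). GAPDH and PKM, the 2 most abundant, were among them at -0.12 and -0.021.

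**Figure D3:**
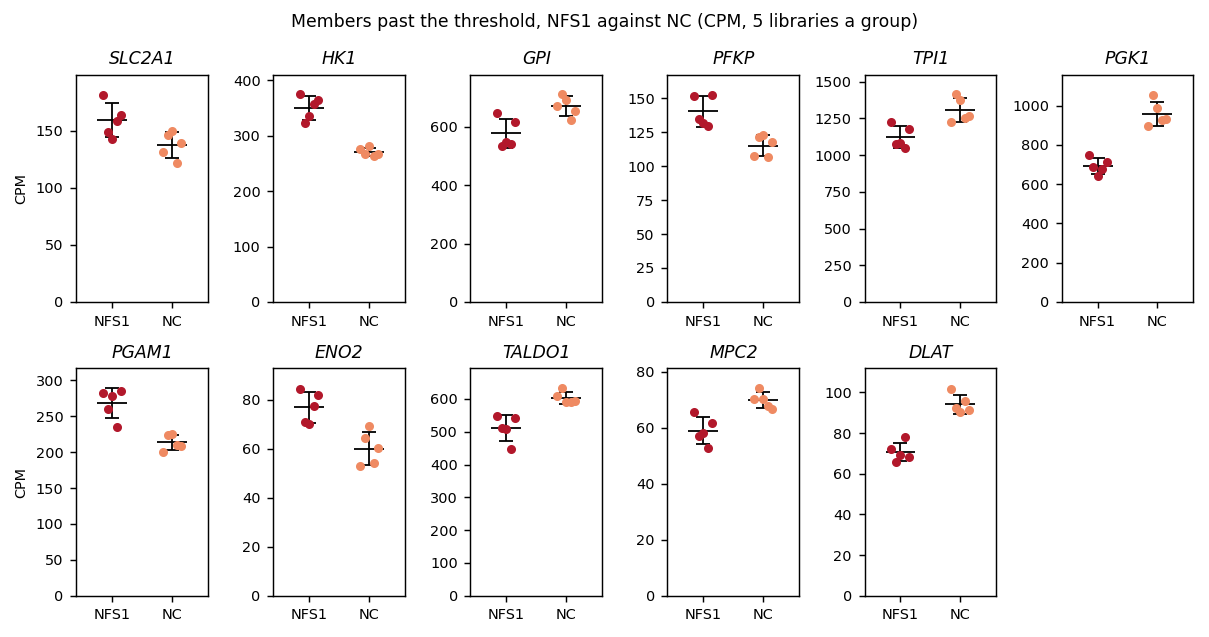
CPM of the 11 genes past the threshold in NFS1 against NC, with 1 point per library, a line at the mean and a bar of 1 SD; each panel starts at 0. The groups are separated for 9 genes and overlap for SLC2A1 and GPI.

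**Figure D4:**
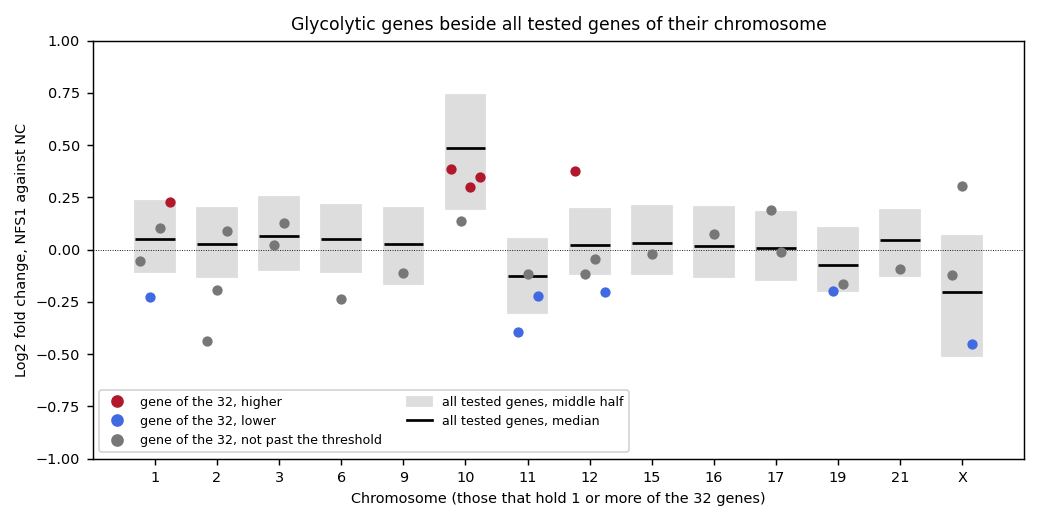
Log2 fold change, NFS1 against NC, of the 32 genes (points) beside the interquartile range (grey box) and median (line) of all tested genes on the same chromosome. The box of chromosome 10 lies above 0 and holds HK1, PFKP and PGAM1, while ENO2 on chromosome 12 and SLC2A1 and MPC2 on chromosome 1 stand near or beyond the edge of boxes centred close to 0.

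In NFS1 against NC, 4 of 10 ratios passed, each without overlap and with an exact p = 0.0079. PFKP/PFKL averaged 1.17 ± 0.10 in NFS1 and 0.77 ± 0.071 in NC, a difference of 0.40 (exact permutation test, adjusted p = 0.0170). PFKL had 70.3, 61.4, 63.6, 52.5 and 64.5 CPM in NFS1, against 59.2, 68.6, 72.8, 67.0 and 69.7 CPM in NC. ENO2/ENO1 averaged -4.91 ± 0.12 in NFS1 and -5.34 ± 0.11 in NC, a difference of 0.43 (exact permutation test, adjusted p = 0.0170), where ENO1 had 2515, 2274, 2282, 2042 and 2436 CPM in NFS1, against 2261, 2547, 2522, 2396 and 2405 CPM in NC. PDHB/PDHA1, the 2 subunits of the decarboxylating enzyme of the complex, averaged 0.39 ± 0.014 in NFS1 and 0.25 ± 0.043 in NC, a difference of 0.14 (exact permutation test, adjusted p = 0.0170). PDHB had 115, 103, 107, 108 and 108 CPM in NFS1, against 105, 112, 105, 108 and 109 CPM in NC. PDHA1 had 86.4, 79.0, 83.0, 82.5 and 81.9 CPM in NFS1, against 92.2, 95.0, 89.9, 88.1 and 89.3 CPM in NC, all below NC, without passing the threshold (adjusted p = 0.0812). PDHX/DLAT, the binding protein over the core enzyme it docks on, averaged -0.81 ± 0.073 in NFS1 and -1.09 ± 0.092 in NC, a difference of 0.28 (exact permutation test, adjusted p = 0.0170). PDHX had 38.0, 39.3, 39.9, 46.3 and 38.1 CPM in NFS1, against 46.6, 48.2, 41.2, 45.2 and 40.4 CPM in NC. HK2/HK1 averaged -9.25 ± 0.55 in NFS1 and -8.41 ± 0.41 in NC, a difference of -0.84 (exact permutation test, adjusted p = 0.0595) and did not pass. Median changes over all tested genes were 0.48 on chromosome 10 (PFKP), 0.045 on 21 (PFKL), 0.023 on 12 (ENO2) and 0.053 on 1 (ENO1). They were 0.064 on chromosome 3 (PDHB), -0.20 on X (PDHA1) and -0.13 on 11 (PDHX and DLAT). The part of these levels in the ratios was not tested.

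The third comparison sets NC against R-47, both labelled wild type and held at 47 °C but from the 2 experiments, so group and experiment cannot be told apart. The labels name 1 cell line for both, while KRT19 averaged 0.794 CPM in NC and 423 CPM in R-47. KRT19 differed most of its marker list. KRT7 averaged 5.30 CPM in NC and 50.1 CPM in R-47, SOX9 6.60 and 16.6 CPM, and EPCAM 0.175 and 0.591 CPM. Whether both experiments used the same cells was not tested. The largest change of the 32 genes in NC against R-47, -1.46 on the log2 scale, exceeded the -0.76 and -0.45 of the comparisons above. ALDOC, PDHB and ENO2 were higher in NC by 2.18- to 2.50-fold, and PFKP was lower, to 0.363 of its R-47 level. PFKL, FBP1, PGD, ALDOA and PGLS were lower as well, and TPI1, RPE and DLAT higher. In all, 17 of 32 genes were higher and 10 lower, beside 40.1% and 39.6% of the 15080 genes tested (79.7% in either direction). All 32 passed the filter, the groups did not overlap for 22 genes beside 67.3% of all tested, and the median was 0.13 against 0.011 for all tested genes. With library size alone, 21 were higher and 6 lower, beside 49.5% and 31.4% of all tested genes, on a scale whose median over all genes was 0.19, and SLC2A1 had a log2 fold change of 0.022 there in place of -0.16, a call also lost without NC library 4.

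Of the glycolytic isozymes, PFKP had 107, 121, 123, 107 and 118 CPM in NC, against 334, 308, 335, 307 and 309 CPM in R-47. The groups lay far apart (a log2 fold change of -1.46, SE 0.049 and adjusted p = 4.21e-17), and per length NC had 30.0 ± 1.96 FPKM of PFKP beside 30.6 ± 0.815 FPKM of PFKM. PFKP lies on chromosome 10, where 58.2% of 570 tested genes were lower in NC. Their median was -0.46, with an interquartile range from -0.92 to 0.30. The part of that chromosome-wide level in the PFKP change was not tested. PFKL had 59.2, 68.6, 72.8, 67.0 and 69.7 CPM in NC, against 116, 110.0, 125, 108 and 121 CPM in R-47, also without overlap (a log2 fold change of -0.77, SE 0.056 and adjusted p = 3.04e-11). PFKM went the other way, at 146, 151, 146, 138 and 139 CPM in NC, against 116, 120.2, 120.3, 117 and 117 CPM in R-47 (a log2 fold change of 0.29, SE 0.041 and adjusted p = 1.06e-06). ALDOC had 19.4, 24.3, 21.6, 19.8 and 21.8 CPM in NC, against 8.61, 9.39, 8.91, 8.06 and 7.96 CPM in R-47. Every NC library had more than 2 times the count rate of any R-47 library (a log2 fold change of 1.32, SE 0.079 and adjusted p = 1.04e-12). ENO2 had the NC values given above, all above the highest R-47 library (a log2 fold change of 1.12, SE 0.069 and adjusted p = 1.96e-12). TPI1 had 1228, 1416, 1378, 1256 and 1267 CPM in NC, against 933, 937, 959, 886 and 929.8 CPM in R-47 (a log2 fold change of 0.50, SE 0.042 and adjusted p = 3.70e-10), again without overlap.

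ALDOA, the aldolase of muscle and most tissues, had 6.07, 6.02, 5.64, 6.50 and 5.11 CPM in NC, against 8.04, 7.53, 9.38, 8.26 and 9.04 CPM in R-47 (a log2 fold change of -0.52, SE 0.10 and adjusted p = 6.10e-05). At 2.93 ± 0.259 FPKM in NC and 3.71 ± 0.324 FPKM in R-47 it stood far below the enzymes next to it in the chain. The RefSeq locus LOC112694756 covers 99.9% of ALDOA and had 1.56 CPM in NC and 1.41 CPM in R-47, and how the authors counted reads lying in both is not stated in the labels. The ALDOA level, and its ratio to ALDOC, are therefore uncertain. MPC2 lies wholly within DCAF6 (72.2 CPM in NFS1, 62.5 in NC, 41.7 in R-47 and 46.0 in R-37), and 30.6% of DLAT lies under PIH1D2 (2.45, 2.37, 1.48 and 0.989 CPM in the same order). These overlaps are of whole gene spans, introns included, and overlap of exons was not measured. Without a stated annotation and strand setting, whether reads of such pairs were mixed is not known.

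In gluconeogenesis and the pentose phosphate pathway, FBP1 had 0.420, 1.02, 0.564, 0.809 and 0.584 CPM in NC, against 1.23, 1.52, 1.04, 0.702 and 1.25 CPM in R-47. The ranges overlapped (a log2 fold change of -0.74, SE 0.28 and adjusted p = 0.0180), and the call was lost with library size alone and without R-47 library 2 (adjusted p = 0.0568 without it). PGD, which makes the second NADPH of the oxidative branch, had 896, 907, 909, 854 and 864 CPM in NC, against 1227, 1325, 1334, 1267 and 1296 CPM in R-47 (a log2 fold change of -0.54, SE 0.037 and adjusted p = 1.11e-11). PGLS had 34.5, 40.3, 39.5, 37.4 and 40.9 CPM in NC, against 52.9, 56.6, 55.4, 49.0 and 56.5 CPM in R-47 (a log2 fold change of -0.48, SE 0.058 and adjusted p = 1.08e-07). Both oxidative enzymes were wholly lower in NC. RPE, the epimerase of the non-oxidative branch, had 61.0, 64.7, 56.7, 56.5 and 51.9 CPM in NC, against 48.8, 40.1, 40.1, 44.6 and 43.0 CPM in R-47 (a log2 fold change of 0.43, SE 0.064 and adjusted p = 2.46e-06), wholly higher. TKT was higher at 0.25, while TALDO1 and RPIA were lower at -0.37 and -0.23, so the branch moved in both directions. The RPIA log2 fold change, NC against R-47, was -0.046 with library size alone (adjusted p = 0.550), and its call was lost there and in the 3 settings on FPKM.

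Of the pyruvate dehydrogenase genes, PDHB had 105, 112, 105, 108 and 109 CPM in NC, against 49.5, 44.3, 46.9, 48.1 and 52.1 CPM in R-47. The NC libraries lay near 2 times the R-47 level (a log2 fold change of 1.17, SE 0.049 and adjusted p = 1.91e-15). PDHB lies on chromosome 3, where the median over 851 tested genes was 0.38 and 60.2% were higher in NC. The part of that level was not tested. DLAT had 102, 92.1, 90.1, 95.7 and 91.2 CPM in NC, against 74.5, 69.7, 69.7, 77.7 and 72.2 CPM in R-47 (a log2 fold change of 0.38, SE 0.048 and adjusted p = 2.85e-07), without overlap. PDHA1 had 79.9, 86.8, 85.0, 87.7 and 83.9 CPM in R-47 and PDHX had 41.2, 39.6, 41.8, 41.8 and 40.2 CPM in R-47, with changes of 0.11 and 0.12 in NC that passed narrowly. Leaving out any of 3 single libraries ended the PDHA1 call and leaving out any of 8 ended the PDHX call. In NC against R-47, 6 of 10 ratios passed, each without overlap and with an exact p = 0.0079. Of all tested genes taken singly, 67.3% did not overlap between these groups. PFKP/PFKL averaged 0.77 ± 0.071 in NC and 1.46 ± 0.071 in R-47, a difference of -0.69 (exact permutation test, adjusted p = 0.0170), and PFKM/PFKL averaged 1.10 ± 0.13 in NC and 0.030 ± 0.089 in R-47, a difference of 1.07 (exact permutation test, adjusted p = 0.0170). ALDOC/ALDOA averaged 1.86 ± 0.21 in NC and 0.025 ± 0.19 in R-47, a difference of 1.84 (exact permutation test, adjusted p = 0.0170). ENO2/ENO1 averaged -5.34 ± 0.11 in NC and -6.29 ± 0.087 in R-47, a difference of 0.95 (exact permutation test, adjusted p = 0.0170). PDHB/PDHA1 averaged 0.25 ± 0.043 in NC and -0.81 ± 0.12 in R-47, a difference of 1.06 (exact permutation test, adjusted p = 0.0170), and PDHX/DLAT averaged -1.09 ± 0.092 in NC and -0.83 ± 0.059 in R-47, a difference of -0.26 (exact permutation test, adjusted p = 0.0170). Median changes over all tested genes were -0.46 on chromosome 10 (PFKP), 0.19 on 21 (PFKL) and -0.20 on 12 (PFKM and ENO2). They were -0.16 on chromosome 17 (ALDOC), -0.13 on 16 (ALDOA) and 0.0081 on 1 (ENO1). On chromosome 3 (PDHB) the median was 0.38, on X (PDHA1) -0.47 and on 11 (PDHX and DLAT) 0.12. The part of these levels in the ratios was not tested. The other genes past the threshold were MPC2 at 0.30, PFKFB3 at 0.29, GAPDH at 0.28, PKM at 0.21, ENO1 at 0.17, HK1 at 0.14, PGK1 at -0.20 and MPC1 at 0.30, whose call was lost without NC library 2 or R-47 library 5. The 5 genes that did not pass lay between -0.086 (PGAM1) and 0.65 (HK2).

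The make-up of each isozyme family, as shares of its summed FPKM, differed between the experiments for hexokinases, phosphofructokinases, aldolases and enolases. It also differed for some members of the dehydrogenase kinases and of the family of PFKFB3. HK1 made up 64.0 ± 1.53% of hexokinase FPKM in NFS1, 58.5 ± 0.344% in NC, 47.2 ± 0.770% in R-47 and 46.9 ± 0.952% in R-37. Nearly all of the rest was HKDC1, a hexokinase-domain gene outside the list, at 35.9 ± 1.51% in NFS1, 41.4 ± 0.345% in NC, 52.7 ± 0.785% in R-47 and 53.1 ± 0.971% in R-37. PFKP made up 44.3 ± 1.12% of phosphofructokinase FPKM in NFS1, 38.2 ± 0.876% in NC, 59.7 ± 0.900% in R-47 and 60.7 ± 0.840% in R-37. PFKM took 35.6 ± 0.818% in NFS1, 39.0 ± 1.63% in NC, 18.1 ± 0.696% in R-47 and 19.8 ± 0.980% in R-37. ALDOC, given the doubt on ALDOA, made up 83.0 ± 1.90% of aldolase FPKM in NFS1, 81.8 ± 2.18% in NC, 55.7 ± 3.23% in R-47 and 54.8 ± 5.59% in R-37. ENO2 was 4.36 ± 0.362% of enolase FPKM in NFS1, 3.25 ± 0.240% in NC, 1.73 ± 0.0989% in R-47 and 1.39 ± 0.0684% in R-37. PDK2 had the highest mean share of the dehydrogenase kinases in all 4 groups, at 39.5 ± 3.57% in NFS1, 44.8 ± 4.02% in NC, 48.5 ± 4.26% in R-47 and 43.9 ± 5.90% in R-37. PDK1 took 32.3 ± 3.40% in NFS1, 32.6 ± 2.87% in NC, 24.7 ± 1.54% in R-47 and 19.1 ± 2.65% in R-37. In the family of PFKFB3, PFKFB4 took 8.28 ± 1.07% in NFS1, 7.18 ± 1.69% in NC, 2.83 ± 0.242% in R-47 and 2.71 ± 0.197% in R-37. The shares are descriptions with no test of their own.

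**Figure D5:**
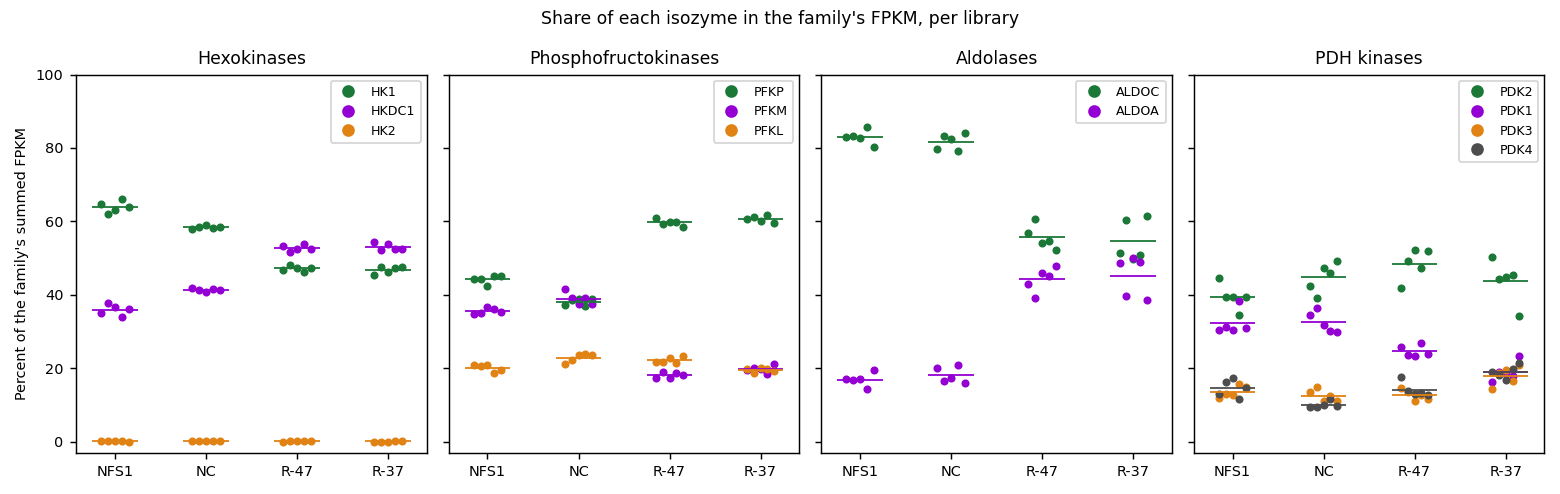
Percent of a family's summed FPKM taken by each isozyme, per library (points) with the group mean (line), in NFS1, NC, R-47 and R-37; minor isozymes are left out of view. HK1 leads the hexokinases in NFS1 and NC and HKDC1 in R-47 and R-37, and ALDOC takes at least 79.1% of the aldolases in every NFS1 and NC library.

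Beyond the 32 genes, 53 further genes of the same pathways were counted (other transporters, isozymes, regulators, lactate and gluconeogenic enzymes). In R-47 against R-37, 38 of them passed the filter, 7 were higher and 5 lower, beside 11.9% and 13.2% of all tested genes. Among the larger changes were GCKR at 0.77, PDK1, a further dehydrogenase kinase, at 0.70, the enolase ENO3 at 0.67, RBKS, ribokinase, at 0.44, and the transporter SLC2A8 at 0.41. In NFS1 against NC, 39 passed the filter, 6 were higher and 10 lower, beside 15.7% and 12.5% of all tested genes. The larger changes included the transporter SLC2A12 at 1.86, GCKR at -0.77 and PDK4 at 0.71. MINPP1, an inositol phosphate phosphatase, was at 0.71 and PDP1, the phosphatase that reactivates pyruvate dehydrogenase, at 0.65. In NC against R-47, 37 passed, 13 were higher and 18 lower, beside 40.1% and 39.6% of all tested genes. The largest changes were ENO3 at 2.98, SLC2A10 at 2.24, PFKFB4 at 1.67, SLC2A12 at -1.48, LDHD at 1.35 and PC, pyruvate carboxylase, at -1.26. These values are log2 fold changes, and each passed the threshold. Several belong to genes at low levels. SLC2A12 averaged 2.03 CPM in NFS1, 0.566 CPM in NC and 1.59 CPM in R-47. SLC2A10 averaged 2.95 CPM in NC and 0.626 CPM in R-47, and LDHD 1.44 CPM in NC and 0.564 CPM in R-47. ENO3 averaged 2.33 CPM in R-47 and 1.46 CPM in R-37, with overlap, and RBKS 3.09 CPM in R-47 and 2.28 CPM in R-37.

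NC and R-47 each stand in 2 of the 3 comparisons, so changes in neighbouring comparisons share libraries and were not correlated. Side by side, PGK1 was lower in all 3, at -0.20 in R-47 against R-37, -0.45 in NFS1 against NC and -0.20 in NC against R-47. The PGK1 log2 fold change, NC against R-47, was -0.023 with library size alone and did not pass there. Its call in R-47 against R-37 was lost with length and GC offsets. PGK1 lies on the X chromosome, where 62.8% of 489 tested genes were lower in NC against R-47, with a median of -0.47. The X median was -0.045 in R-47 against R-37 and -0.20 in NFS1 against NC. The part of these chromosome-wide levels in the PGK1 changes was not tested. ENO2 was higher in all 3, at 0.21 in R-47 against R-37, 0.38 in NFS1 against NC and 1.12 in NC against R-47. Its call in R-47 against R-37 was lost with all 20 libraries in one fit, with the replicate block and without any of 5 single libraries. TALDO1 was lower in all 3, at -0.20, -0.22 and -0.37. Its call in R-47 against R-37 was lost with library size alone and in the settings on FPKM. In NFS1 against NC the TALDO1 call was lost with length and GC offsets. MPC2 was higher in R-47 against R-37 at 0.24, lower in NFS1 against NC at -0.23 and higher in NC against R-47 at 0.30. SLC2A1 was higher in the first 2, at 0.35 and 0.23. RefSeq names 65 GAPDH pseudogenes and 13 of PGAM1, none of which is a row of the count table, so reads shared with such copies leave these levels uncertain.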

How the data were processed

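RNA-seq of polyA RNA from 20 libraries, 5 in each of 4 groups, was measured. Groups and library numbers came from the sample titles. The tools fastp, HISAT2 and HTSeq and the build hg38 are named per the submitters' processing notes, without versions; annotation and strand were not given in the sources used here. Raw whole-number counts per gene symbol, and FPKM for the same genes, were deposited by the authors. Each deposited FPKM is a count over 1 fixed length per gene and over the library total, so its only scaling is that by library size. No library was identical to another, and 0 columns were left unused.

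The 32 genes, the 53 further pathway genes, the pairs and the marker lists were chosen with earlier results of these data known. Counts were tested with edgeR's quasi-likelihood test (glmQLFit, glmQLFTest) in a fit of the 2 groups compared, after filterByExpr (minimum count 10, total 15) and TMM scaling, with Benjamini-Hochberg adjustment over all tested genes at 0.05. Each adjusted p of a gene is from that test. SE was taken as the absolute log2 fold change over the root of its F. Printed levels are CPM with TMM over all 20 libraries. Library values are given for up to 12 called genes of largest change per comparison and for genes of pairs past the threshold, and up to 6 further pathway genes. Some further pathway genes are not reported here by name. Within-library ratios were tested by exact two-sided permutation. Positions and promoters are RefSeq's (GRCh38.p14). The count and ratio tests were tested on simulated data. Alternatives were other scalings, filters, tests (DESeq2, limma-voom, limma on log2 FPKM), offsets, the library number as a block and left-out libraries. R 4.3.3, edgeR 4.0.16, limma 3.58.1, DESeq2 1.42.0, matplotlib 3.10.9, numpy 2.4.6, pandas 2.3.3 and Python 3.11.15 were used.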

Additional observations from a re-analysis of the deposited data

Results flagged for a closer look

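In 4 of the 128 groups of 5 libraries (32 genes, 4 groups) 1 library stood apart by a gap of over 0.71 of the group's range, where about 6.4 are expected by chance. FBP1 had 0.935 CPM in NFS1 library 3, against 0.497 to 0.612 CPM in the other NFS1 libraries. MPC2 had 43.6 CPM in R-37 library 2, against 49.1 to 51.0 CPM in the others of that group. PDHX had 46.3 CPM in NFS1 library 4, against 38.0 to 39.9 CPM in the others. PDK2 had 10.3 CPM in R-47 library 1, against 13.9 to 15.3 CPM in the others.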

How the results depend on the processing

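Of the genes past the threshold, 4 of 12 in R-47 against R-37 (FBP1, MPC2, PDK2, SLC2A1), 6 of 11 in NFS1 against NC (DLAT, ENO2, HK1, PFKP, PGAM1, PGK1) and 20 of 27 in NC against R-47 kept their call in every setting that tested them. The number higher in R-47 against R-37 was 5, and 8 with library size alone, 8 and 8 with limma on log2(FPKM + 1) and log2(FPKM + 0.1) at a mean FPKM of at least 1, and 3 with all 20 libraries in one fit, with 3 to 7 on leaving out 1 library. The number lower was 7, and 2, 1 and 1 in the first 3 of these settings and 2 with log2(FPKM + 1) unfiltered, with 6 to 9 on leaving out 1 library. FPKM and library size alone share one scaling. In NFS1 against NC the number higher was 5, and 9 with length and GC offsets and 8 without NC library 1 and NFS1 library 4, with 4 to 7 on leaving out 1 library. The number lower was 6, and 3 without NFS1 libraries 2 and 3, with 5 to 9 on leaving out 1. In NC against R-47 the number lower was 10, and 6 with library size alone and in each of the 3 FPKM settings, with 9 to 11 on leaving out 1, and the number higher was 17, with 14 to 18. SLC2A1 log2 fold change, NC against R-47, was -0.16, and 0.022 with library size alone, 0.020 with log2(FPKM + 1) with and without the filter and 0.020 with log2(FPKM + 0.1). Pairs of libraries were left out, and scaling factors taken outside chromosomes 10 and X, as choices made after seeing the data. With the library number as a replicate block the numbers higher and lower were 4 and 7, 4 and 5, and 17 and 11 in the 3 comparisons. The deviations of same-numbered libraries had correlations from -0.38 to 0.28. With 5 libraries a group, these cannot settle whether the number pairs libraries. In the block, 0 ratios passed in each comparison, where 5, 4 and 6 passed without it, since 5 pairs cannot give p below 0.0625. On leaving out 1 library, 4 to 5, 4 to 5 and 6 ratios passed. FBP1 and HK2, near or under 1 CPM, are the genes most limited by depth. The causes of these differences were not tested.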
